A study of Mus musculus with 6 samples.

Results

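The constitutive genes of the 26S proteasome, those outside the immunoproteasome, were followed across 6 arrays of mouse bone marrow-derived macrophages. The genes were taken by name from the arrays' annotation: every gene called Psma, Psmb, Psmc or Psmd with a number, leaving out Psmb8, Psmb9 and Psmb10, the catalytic subunits of the immunoproteasome. This gave 36 genes among the 27361 gene names on the arrays. The core particle had 16 of them, 8 in the alpha ring (Psma1 to Psma8) and 8 in the beta ring (Psmb1 to Psmb7 and Psmb11). The regulatory particle had 20, of which 6 were ATPases (Psmc1 to Psmc6) and 14 were non-ATPase genes (Psmd1 to Psmd14). By this rule the set also holds Psma8 and Psmb11, subunits of the testis and thymus forms, and the assembly chaperones Psmd5, Psmd9 and Psmd10. Psmc3ip, which shares the letters but codes for a recombination factor, was not a member.

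The study asks what the transcription factor FoxO1 does in macrophages. KO macrophages carried LysMcre, a Cre recombinase expressed from the lysozyme M gene in myeloid cells, together with Foxo1 fl/fl, the floxed Foxo1 gene. WT macrophages carried Foxo1 fl/fl without Cre, so the groups differed in the presence of Cre as well as in Foxo1. All mice were C57BL/6, and ages are not given in the sources used here. In each genotype, marrow cells were grown for 7 days with 10% L929 medium, a source of macrophage growth factor. They were then left unstimulated (M0), exposed for 24 h to LPS (100 ng/ml) and IFN-γ (20 ng/ml), which gave M1, or exposed for 24 h to IL-4 and IL-13 (10 ng/ml of each), which gave M2. Each of the 6 combinations had 1 array, and nothing in the labels says that they came from separate animals.

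The 26S proteasome degrades proteins tagged with ubiquitin. Its barrel-shaped core particle stacks outer alpha rings, which gate the entrance, on inner beta rings, where the subunits Psmb5, Psmb6 and Psmb7 carry the chymotrypsin-like, caspase-like and trypsin-like active sites. The regulatory particle caps the barrel: its ATPase ring unfolds substrates, and its non-ATPase subunits bind ubiquitin chains and cut them off. In macrophages exposed to interferon-gamma, Psmb5, Psmb6 and Psmb7 can be replaced in new particles by Psmb8, Psmb9 and Psmb10, which favour peptides for MHC class I. In mammalian cells short of proteasome activity, the transcription factor Nfe2l1 (Nrf1) raises the subunit genes together through antioxidant response elements in their promoters.

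The stretches upstream of 4 subunit genes are printed here. They are the 250 bases before the annotated start in RefSeq on GRCm38.p6, given 5′ to 3′ on the strand of the gene. The first pair is shown because Psmb5 and Psmb6 are catalytic subunits whose stretch holds the core of the antioxidant response element, TGACNNNGC, printed in capitals. The second pair is shown because Psma5 and Psmd6 had the highest difference between M1 and M0 and the lowest difference above 0 among the members; neither stretch holds TGACNNNGC or CCAAT.
Psmb5 (chr14:54617996-54618245, minus strand): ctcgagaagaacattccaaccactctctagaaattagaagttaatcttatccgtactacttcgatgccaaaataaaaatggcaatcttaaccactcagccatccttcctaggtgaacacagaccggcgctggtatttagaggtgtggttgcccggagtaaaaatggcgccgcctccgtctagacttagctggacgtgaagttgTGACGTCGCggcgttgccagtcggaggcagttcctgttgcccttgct
Psmb6 (chr11:70525107-70525356, plus strand): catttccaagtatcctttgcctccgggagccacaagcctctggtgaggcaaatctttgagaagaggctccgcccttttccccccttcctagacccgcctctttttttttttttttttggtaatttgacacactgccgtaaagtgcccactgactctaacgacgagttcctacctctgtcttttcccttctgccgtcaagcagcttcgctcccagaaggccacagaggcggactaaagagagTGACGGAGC
Psma5 (chr3:108256676-108256925, plus strand): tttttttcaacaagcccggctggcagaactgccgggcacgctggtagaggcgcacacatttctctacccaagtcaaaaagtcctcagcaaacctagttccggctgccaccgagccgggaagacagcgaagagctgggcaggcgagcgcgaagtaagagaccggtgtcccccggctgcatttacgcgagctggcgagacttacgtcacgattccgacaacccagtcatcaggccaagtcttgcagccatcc
Psmd6 (chr14:14120946-14121195, minus strand): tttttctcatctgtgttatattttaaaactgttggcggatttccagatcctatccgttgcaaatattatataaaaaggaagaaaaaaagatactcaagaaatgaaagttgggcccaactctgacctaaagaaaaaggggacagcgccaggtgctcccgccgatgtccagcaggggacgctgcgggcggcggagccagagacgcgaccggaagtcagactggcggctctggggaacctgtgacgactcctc
The match began 47 bases before the start of Psmb5 and 9 bases before that of Psmb6. RefSeq stretches were matched for 29 of the 36 members, 31 stretches in all because some genes have more than 1 start. Searched on both strands, TGACNNNGC stood in 5 of the 31 stretches (16.1%), those of Psmb5, Psmb6, Psmc6, Psmd12 and Psmd9, against 10.2% of all 32851 stretches. The CCAAT box stood in 12 of 31 (38.7%), against 33.8% of all. The forkhead letters GTAAACA stood in 0 of 31, against 3.17% of all and the gamma-activated sequence TTCNNNGAA in 0 of 31, against 7.02% of all. A match is a description of these letters in this window and not a binding site.

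The level of a gene is the log2 signal of its brightest probe relative to the 75th percentile of the array, so that a difference of 1 is 2-fold, and levels of different genes cannot be set against each other. That percentile lay between 583 and 627 units on the KO arrays and between 532 and 588 units on the WT arrays. The targeted gene Foxo1 read -1.42, -1.82 and -1.15 on the KO M0, M1 and M2 arrays and 1.5, 0.96 and 1.5 on the WT M0, M1 and M2 arrays, lower in KO in each state, which goes with the labels. The fitted Foxo1 difference of -2.78 did not pass the test (adjusted p = 0.305). All 8 macrophage markers were well above background on every array. The KO M1 and WT M0 arrays stood apart in 8 liver markers such as Alb: their median level was -3.89 on KO M1 and 0.85 on WT M0, against -6.23 and -5.96 on the other KO arrays and -7.48 and -6.13 on the other WT arrays. The other marker lists varied too. The summed linear signal of 7 neutrophil markers was 8074, 2144 and 3261 units on KO M0, M1 and M2 and 42650, 2100.5 and 13887 units on WT M0, M1 and M2. For 8 stromal markers it was 3804, 2996 and 2754 units in KO and 9297, 4577 and 5176 units in WT, and for 6 proliferation markers 1824, 864 and 1469 units in KO and 2590, 1120 and 3677 units in WT, in the same order. The 4 B cell markers summed to between 113 and 298 units in KO and between 131 and 883 units in WT. The 4 T and NK cell markers summed to between 221 and 307 units in KO and between 90.8 and 225 units in WT, and of these Ncr1 was dim throughout, never well above background. The part of these transcripts in the results below was not tested.

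All 36 members passed the filter for testing, which asked that 2 or more of the 6 arrays read well above background, and 35 were well above background on all 6. The exception was Psmb11, the catalytic subunit of the thymoproteasome of cortical thymic epithelium, which was not well above background on WT M0 and WT M1. No member was saturated on any array.

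M1 against M0 asked what LPS with IFN-γ did to the subunit genes. Of the 36 members 29 were higher in M1 and 0 were lower (limma, adjusted p under 0.05), among them 14 of 16 core and 15 of 20 regulatory genes. Over all 19048 genes tested 25.6% passed in either direction and 11.6% passed as higher. The median fitted difference was 0.97 over the 36 members, 1.01 over the core and 0.92 over the regulatory particle, and 0.03 over all genes tested. Both M1 arrays lay above both M0 arrays for 34 of 36 members, all but Psma8 and Psmb11, against 30.4% of all genes tested. These are levels in bulk RNA, in which fewer cells of a type and less RNA per cell cannot be told apart.

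**Figure D1:**
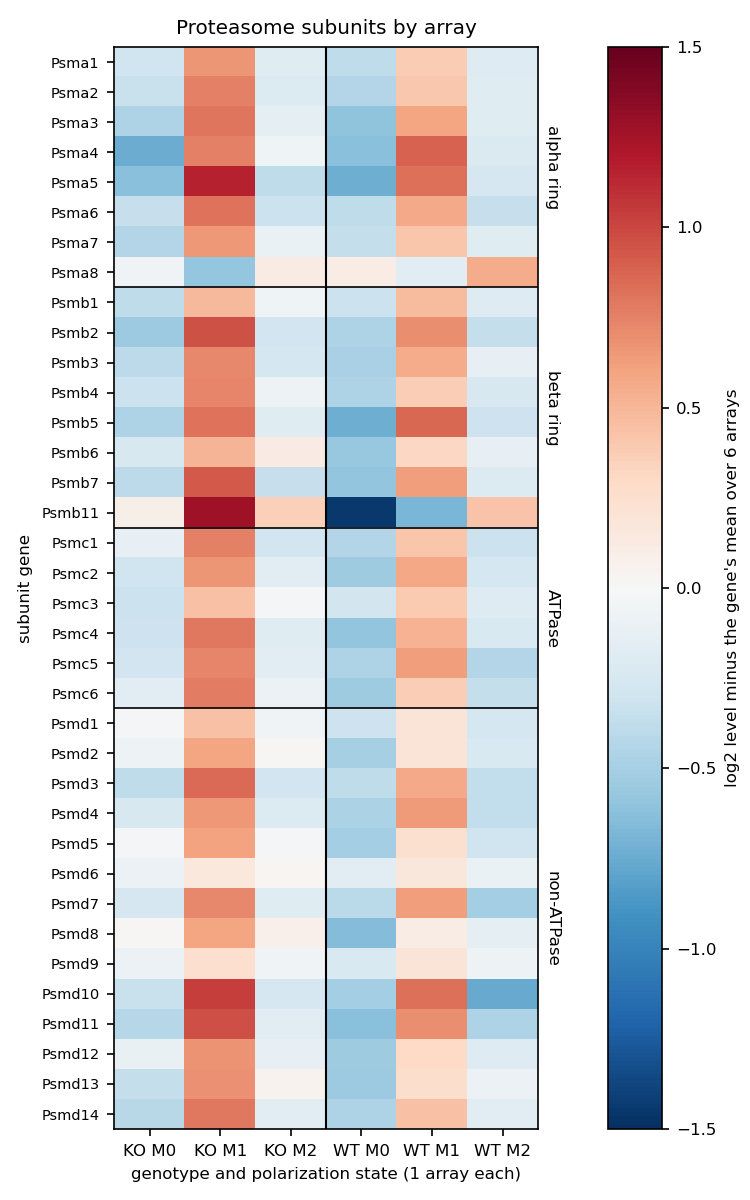
Level of each of the 36 proteasome subunit genes (rows, grouped by role) on each of the 6 arrays (columns, 1 array each; KO left of WT), as the log2 level minus the gene's own mean over the 6 arrays. The M1 columns were above the mean for 35 of 36 genes in KO and 34 of 36 in WT; Psmb11 was not well above background on WT M0 and WT M1.

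In the alpha ring, 7 of 8 genes were higher in M1 than in M0. Psma5, whose transcript had the largest difference of all members, read 4.77, 6.56 and 5.03 on the KO M0, M1 and M2 arrays and 4.68, 6.23 and 5.15 on the WT M0, M1 and M2 arrays. Both M1 arrays were well above the other 4, and the fitted difference was 1.67 ± 0.19 (SE; 3.19-fold; adjusted p = 0.0134). Its probe lies at chr3:108082754-108082813 on mm9, the build of the probe coordinates. Psma4 read 3.19, 4.69 and 3.86 in KO and 3.30, 4.82 and 3.72 in WT, in the same order of states, a difference of 1.51 ± 0.17 (adjusted p = 0.0131; probe at chr9:54802741-54804087, an interval that crosses an intron). Its M2 arrays lay between the M0 and M1 arrays in both genotypes. Psma3 read 3.43, 4.70 and 3.74 in KO and 3.30, 4.48 and 3.72 in WT, with the same order of states (1.23 ± 0.16; adjusted p = 0.0164). Psma6, Psma2, Psma7 and Psma1 followed with differences between 0.87 and 1.05. Psma8, the alpha subunit of the testis proteasome, went the other way without passing the test: it read -0.90, -1.42 and -0.73 in KO and -0.73, -1.01 and -0.29 in WT, a difference of -0.40 ± 0.17 (adjusted p = 0.16).

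In the beta ring, 7 of 8 genes were higher, and all 3 catalytic subunits were among them. Psmb5, the chymotrypsin-like subunit, read 3.93, 5.20 and 4.21 on KO M0, M1 and M2 and 3.65, 5.24 and 4.08 on WT M0, M1 and M2. The M1 arrays of the genotypes were close to each other, and the difference was 1.43 ± 0.17 (2.70-fold; adjusted p = 0.0146; probe at chr14:55233161-55233220, mm9). Psmb7, the trypsin-like subunit, read 2.83, 4.14 and 2.88 in KO and 2.63, 3.85 and 3.02 in WT, a difference of 1.26 ± 0.19 (2.40-fold; adjusted p = 0.0215; probe at chr2:38468966-38489385). Psmb6, the caspase-like subunit, differed least of the catalytic genes: it read 5.41, 6.16 and 5.78 in KO and 5.09, 5.96 and 5.53 in WT, a difference of 0.81 ± 0.15 (1.76-fold; adjusted p = 0.0329; probe at chr11:70341014-70341073). Psmb5 and Psmb6 are the catalytic genes whose upstream stretches, printed above, hold TGACNNNGC, and they stand at opposite ends of the 3. Psmb7 was not searched for it, and a link between the match and the difference was not tested. Psmb2, a structural beta subunit, read 1.33, 2.83 and 1.58 in KO and 1.40, 2.56 and 1.51 in WT (1.33 ± 0.17; adjusted p = 0.0167). Psmb3, Psmb4 and Psmb1 had differences of 1.08, 0.94 and 0.84. For Psmb11 only the KO arrays allow a value, -4.99 in KO M1 and -6.17 in KO M0, since neither WT array of this comparison was well above background.

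All 6 genes of the ATPase ring were higher, with differences from 0.71 ± 0.16 for Psmc3 (adjusted p = 0.0467) to 1.11 ± 0.16 for Psmc4 (adjusted p = 0.021). Psmc4 read 3.72, 4.82 and 3.85 on KO M0, M1 and M2 and 3.44, 4.55 and 3.80 on WT M0, M1 and M2. Its M1 arrays were 1.11 above M0 in KO and 1.11 above M0 in WT.

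Of the 14 non-ATPase genes 9 were higher. Psmd11, a lid subunit that clamps the lid to the ATPase ring and the core, read 4.46, 5.85 and 4.73 on KO M0, M1 and M2 and 4.25, 5.58 and 4.42 on WT M0, M1 and M2. M1 was above M0 and M2 in both genotypes, by a fitted 1.36 ± 0.15 over M0 (2.56-fold; adjusted p = 0.0131; probe at chr11:80285272-80285331). Psmd10 (gankyrin), which helps assemble the regulatory particle and is not part of the finished one, read 0.87, 2.24 and 0.95 in KO and 0.70, 2.04 and 0.45 in WT (1.35 ± 0.17; adjusted p = 0.0169). Psmd14, the deubiquitinase of the lid, had a difference of 1.06, and Psmd4, a ubiquitin receptor, one of 1.00. Psmd3, Psmd7, Psmd13, Psmd12 and Psmd5 were the other genes that passed, with differences of 1.09, 1.00, 0.92, 0.80 and 0.69.

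The 5 non-ATPase genes that did not pass were all above 0. Psmd2 and Psmd1, the large scaffold subunits at the base of the particle, had differences of 0.68 ± 0.16 (adjusted p = 0.0503) and 0.48 ± 0.15 (adjusted p = 0.0931). Psmd8, a lid subunit, had 0.66 (adjusted p = 0.0755), and Psmd9, another assembly chaperone of the regulatory particle, had 0.38 (adjusted p = 0.148). Psmd6, also of the lid, had the smallest difference, 0.29 ± 0.15 (adjusted p = 0.239): it read 3.47, 3.72 and 3.59 in KO and 3.39, 3.72 and 3.45 in WT. Psmd2 and Psmd5 lay just either side of the threshold.

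**Figure D2:**
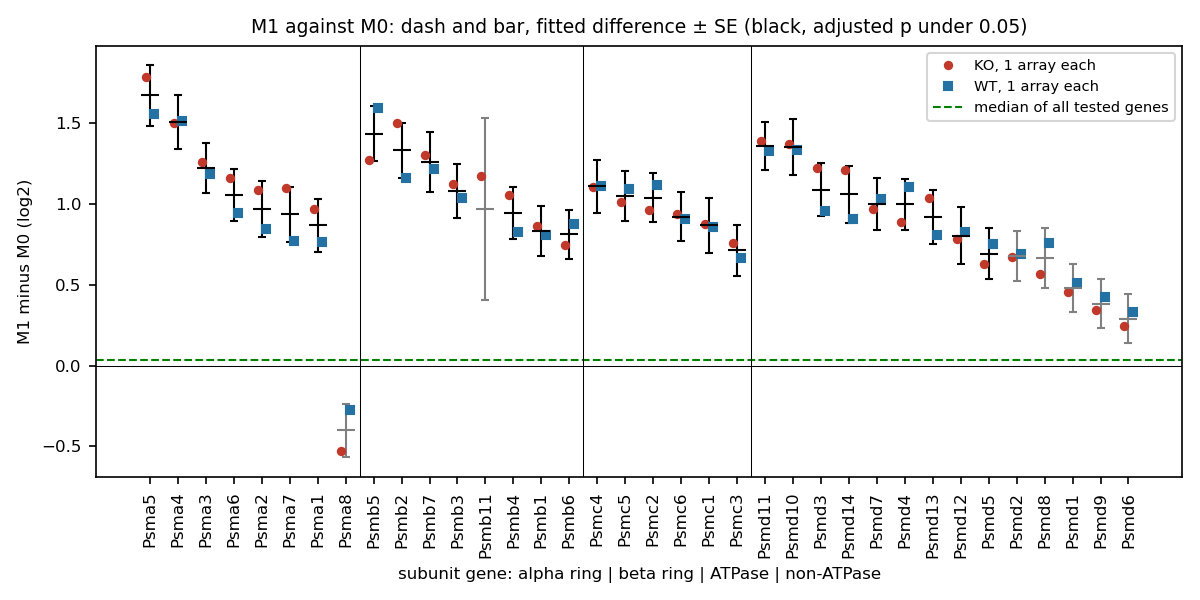
Difference between M1 and M0 (log2) for the 36 subunit genes, ordered within each role. Dashes with bars are the fitted difference ± SE over both genotypes, black where the adjusted p was under 0.05 (29 genes) and grey otherwise; circles are KO and squares are WT, 1 array against 1 array. The green line is the median of all genes tested (0.03); Psmb11 has no WT point because neither WT array was well above background.

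The genotypes could be read apart, since in each of them the M1 and M0 arrays shared a slide. The difference was at least 2-fold for 19 of 36 members in KO (12 core and 7 regulatory), against 13.3% of all genes tested. It was at least 2-fold for 14 of 36 members in WT (7 core and 7 regulatory), against 11.7% of all. The core median was 1.14 in KO and 0.91 in WT, and the regulatory median was 0.91 in KO and 0.88 in WT. Psmb5 had the opposite order from the core median, with 1.27 in KO and 1.60 in WT. With 1 array per state the difference between genotypes was not tested.

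Other probes for the same genes were mostly of the same direction. The 36 members had 57 probes, and 14 members had more than 1 probe well above background on all 6 arrays. Of the 18 further probes of these genes, 17 had M1 above M0 in both genotypes, with a median difference of 0.73. The exception was a probe of Psmd14 made to another transcript, which was 0.46 higher in KO and 0.58 lower in WT.

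The call count for M1 against M0 rested on every M0 and M1 array: without KO M0, KO M1, WT M0 or WT M1 it was 0 of 36, and then 0 of all 19048 genes passed, while the median over the members stayed between 0.87 and 1.02. It also depended on the scaling. After quantile normalization 10 members passed, and 10 passed in the authors' deposited table and 6 after normexp background correction, all of them higher. Of all 19048 genes 2038, 2041 and 673 passed as higher in the same order, against 2201 on the main scale. Without KO M1 and WT M0, the arrays with liver transcripts, the core median was 0.91 and the regulatory median 0.84. The median of all genes was then -0.23. In that fit WT M1 and KO M0 are joined only through the M2 arrays, across genotype and slide, so it is not a direct comparison of M1 with M0.

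The size of the difference moved with the scaling as well, as it did for other genes of the same brightness. Among the 722 genes with a mean level from 4 to 5, the 10 members had a median difference of 1.05 and all genes in the range one of 0.26. After quantile normalization the same medians were 0.59 and -0.20. The members' median was thus 0.79 above that of their range on both scales. Among the 426 genes from 5 to 6 the 9 members had a median of 0.94, against 0.24 for all genes in the range, and 0.44 against -0.24 after quantile normalization.

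**Figure D3:**
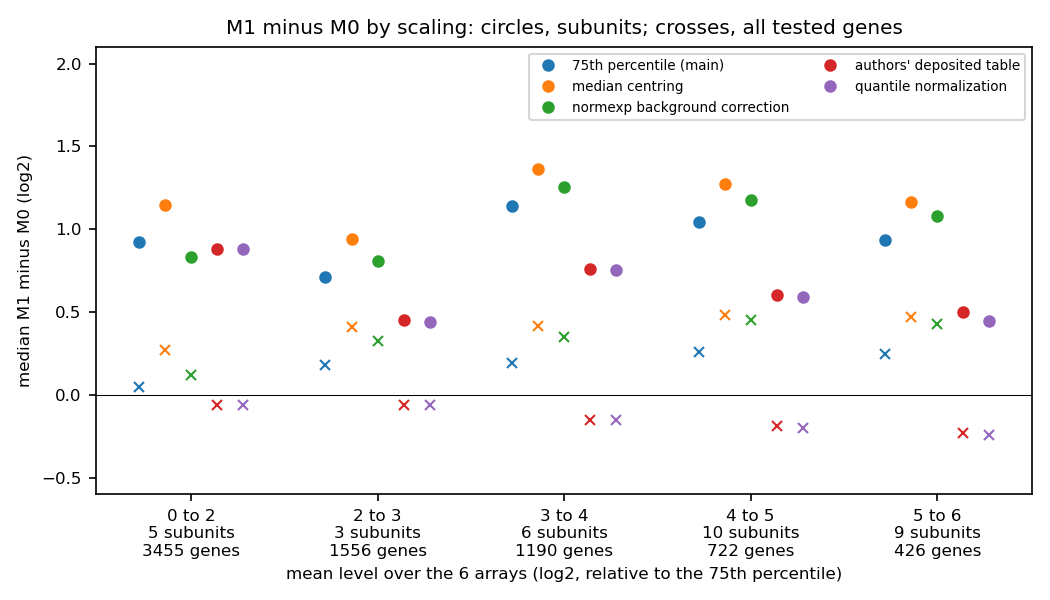
Median difference between M1 and M0 (log2, y axis) by mean level of the gene (x axis), under 5 scalings shown in colour. Circles are the proteasome subunits and crosses are all genes tested in the same range. Psma2, Psma8 and Psmb11 lie outside these ranges and are left out. The circles lie above the crosses in every range and scaling, for example 1.05 against 0.26 from 4 to 5 on the main scale.

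M1 against M2 compared the same M1 arrays with the IL-4 and IL-13 arrays. Of the 36 members 21 were higher in M1 and 0 were lower (10 core and 11 regulatory), against 25.3% of all genes tested in either direction and 11.6% as higher. The median difference was 0.79 over the members and -0.18 over all genes. Both M1 arrays lay above both M2 arrays for 34 of 36 members, against 27.7% of all genes. Psmd10 differed most, by 1.44 ± 0.17 (adjusted p = 0.0143), and its WT M2 array was the lowest of its 6. Psma5, Psmb2, Psmd11, Psmb5, Psmb7, Psmd3 and Psma6 followed with differences between 1.02 and 1.31, so 2 of the 3 catalytic subunits were among the 8 largest. Psmb6 was the catalytic gene that did not pass (0.41 ± 0.15; adjusted p = 0.133). Psma8 lay at -0.71 ± 0.17 (adjusted p = 0.0534), and passed as lower when the filter asked for all 6 arrays in place of 2.

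In KO all 3 arrays shared a slide, and the median over the members was 0.86 there. In WT the M1 and M2 arrays were on different slides, and it was 0.67. With the slide in the model 1 of 36 members passed as higher, as did 1114 of all 19048 genes. The count of members fell whenever 1 array was left out, while their median stayed between 0.68 and 0.85.

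M2 against M0 gave no call. Of the 36 members 0 passed the limma test and 1, Psma4, had an unadjusted p under 0.05; over all genes tested 0.084% passed. The median difference was 0.20 over the members, 0.25 over the core, 0.12 over the regulatory particle and 0.08 over all genes. Both M2 arrays lay above both M0 arrays for 22 of 36 members (15 of 16 core and 7 of 20 regulatory), against 31.6% of all genes. Among members well above background on all 6 arrays, the highest fitted differences were 0.55 ± 0.17 for Psma4 (adjusted p = 0.221), 0.43 for Psmd13, 0.41 for Psmb6 and 0.37 for Psma3. The lowest were -0.09 ± 0.17 for Psmd10 (adjusted p = 0.786), -0.02 for Psmc1, -0.02 for Psmd7 and 0.00 for Psmd1. Psmb6 had the highest difference of the 3 catalytic genes, at 5.78 in M2 and 5.41 in M0 for KO and 5.53 in M2 and 5.09 in M0 for WT. In KO the M2 and M0 arrays shared a slide, and the core median was 0.25 and the regulatory median 0.09. The median of all genes there was 0.02. In WT, where these arrays were on different slides, the core and regulatory medians were 0.37 and 0.16, against 0.11 over all genes.

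KO against WT asked whether the subunit genes followed the loss of Foxo1. Of the 36 members 0 passed the limma test, as did 0% of all genes tested, and 2 members, Psmd8 and Psmd5, had an unadjusted p under 0.05, against 2156 of all 19048 genes. The differences were small and mostly above 0. The median over the 3 states was 0.14 over the members, 0.11 over the core, 0.22 over the regulatory particle and 0.09 over all genes. All 20 regulatory genes and 14 of 16 core genes had a fitted difference above 0, against 61.7% of all genes. KO was above WT in each of the 3 states for 17 of 20 regulatory and 5 of 16 core genes, against 22% of all genes. Among genes of mean level 2 to 6 alone this held for 13 of 16 regulatory genes, 5 of 12 core genes and 27.6% of all 3894 genes in the range. Each count takes only the brightest probe of a gene. Other readable probes of these regulatory genes did not all follow. Those of Psmc6 and Psmd9 had KO below WT in every state. Those of Psmc2, Psmc4 and Psmc5 had KO above WT in some states only. Those of Psmd2 and Psmd4 kept KO above WT in every state, and those of Psmd7 and Psmd12 were divided.

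Without KO M1 and WT M0 the KO against WT value rests on the M2 arrays alone, and the core median was then 0.03 and the regulatory median 0.17.

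The 4 highest members well above background on all 6 arrays were regulatory. Psmd8 read 4.59, 5.16 and 4.65 on KO M0, M1 and M2 and 3.93, 4.69 and 4.43 on WT M0, M1 and M2. KO was above WT in each state, most in M0, and the fitted difference was 0.46 ± 0.15 (1.37-fold; adjusted p = 0.431). Psmd5, an assembly chaperone, read 1.70, 2.33 and 1.71 in KO and 1.21, 1.96 and 1.43 in WT (0.38 ± 0.13; adjusted p = 0.433). Psmd2 read 4.74, 5.41 and 4.83 in KO and 4.31, 5.0 and 4.59 in WT (0.36 ± 0.13; adjusted p = 0.442). Both were above WT in every state. Psmc6, an ATPase, had a difference of 0.34 ± 0.12 (adjusted p = 0.444). The other probe of Psmc6 went the other way, with 0.65, 1.00 and 0.65 in KO and 0.76, 1.19 and 0.97 in WT. The other probe of Psmd2 had KO above WT in every state. The 4 lowest were core genes: Psma8 at -0.34 ± 0.14 (adjusted p = 0.463), Psma4 at -0.03, Psmb1 at 0.02 and Psmb3 at 0.04. The catalytic genes Psmb5, Psmb6 and Psmb7 had differences of 0.12, 0.26 and 0.12, and Psmd11, whose human counterpart has been tied to FOXO4 in embryonic stem cells, one of 0.26 ± 0.12 (adjusted p = 0.492).

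**Figure D4:**
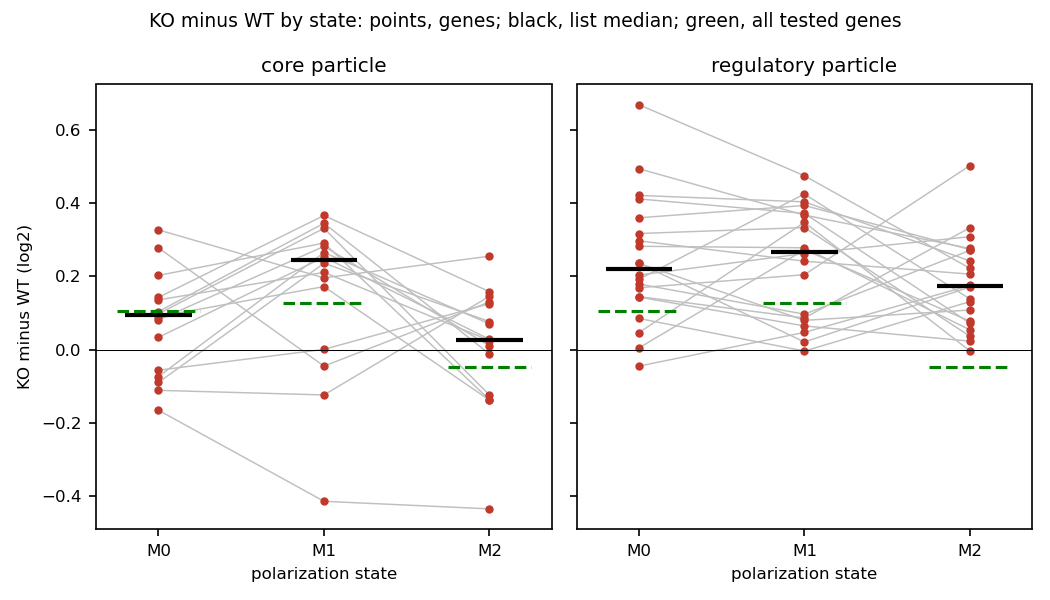
KO minus WT (log2) in M0, M1 and M2 for the core (left, 15 of 16 genes) and regulatory (right, 20 genes) particles; each point is 1 gene, 1 array against 1 array, and grey lines join a gene's values. Black bars are list medians, 0.09, 0.24 and 0.03 for the core and 0.22, 0.27 and 0.17 for the regulatory particle. Green dashes are all genes tested. Psmb11 is not drawn as a point because WT M0 and WT M1 give only a bound, but the core medians are over all 16 genes with its measured values.

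State by state (M0, M1 and M2), the core medians of KO minus WT were 0.09, 0.24 and 0.03 and the regulatory medians 0.22, 0.27 and 0.17, against 0.10, 0.13 and -0.05 over all genes. Among members well above background on both arrays of a state, the highest differences in M0 were those of Psmd8 (0.67), Psmd5 (0.49) and Psmd2 (0.42), and the lowest those of Psma8 (-0.17), Psma4 (-0.11) and Psma7 (-0.09). In M1 the highest were Psmd8 (0.48), Psmd13 (0.43) and Psmd2 (0.40), and the lowest were Psma8 (-0.41), Psma4 (-0.12) and Psmb5 (-0.04). In M2 the highest were Psmd10 (0.50), Psmd7 (0.33) and Psmd11 (0.31), and the lowest were Psma8 (-0.44), Psmb3 (-0.14) and Psmb7 (-0.14). Psma8 was thus the lowest in each state, while the highest genes in M2 were not those of M0 and M1. Of the same members, 1 was higher in KO by 1.5-fold or more in M0 (Psmd8), against 19.1% of all genes, and 0 were in M1, against 25.4%, or in M2, against 8.87%. By its brightest probe, Psmb11 was at least 1.59-fold higher in KO than in WT in M0 (levels -6.17 and -7.71) and at least 3.88-fold higher in M1 (-4.99 and -6.95), where the WT value is a bound. These signals were dim, at 8.4 units on KO M0 and 18.3 units on KO M1. The gene's other probe never stood clear of background. It read -8.63 and -8.13 on KO M0 and WT M0 and -8.21 and -8.37 on KO M1 and WT M1. Being so dim, that probe cannot decide whether the difference holds.

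M2 is the only state in which the KO and WT arrays shared a slide, and there 19 of 20 regulatory and 10 of 16 core genes were above WT, against 45.2% of all genes. The direction was not kept under every scaling for the core: after normexp background correction the core median was -0.01 and the regulatory median 0.13. The median of all genes was then 0.17, above both. Of the 36 members 23 were then above 0 and 8 lay above the median of all genes, against 34 and 27 on the main scale. The regulatory median also fell below 0 within M0 under normexp and within M1 when arrays were centred on their median.

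The rest of the proteasome system was read from lists of related genes. The 3 immunoproteasome genes were all higher in M1 than in M0, by 2.76 for Psmb8, 2.89 for Psmb9 and 1.97 for Psmb10, and their KO against WT differences lay between -0.36 and -0.01 (adjusted p between 0.466 and 0.982). Of 5 activator and inhibitor genes 4 were higher and 0 lower in M1, against 11.6% of all genes tested as higher. Psme1 and Psme2, which form the interferon-inducible 11S cap, had differences of 2.24 ± 0.19 (adjusted p = 0.00963) and 1.40 ± 0.25 (adjusted p = 0.0298). Psme3 and Psme4, other caps of the core, had differences of 1.17 and 1.13.

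Of 5 chaperones of core assembly 1 was higher, against 11.6% of all genes tested. It was Pomp, needed for the beta ring to close, which read 6.18, 7.34 and 6.51 on KO M0, M1 and M2 and 6.36, 7.11 and 6.23 on WT M0, M1 and M2 (0.95 ± 0.20; adjusted p = 0.0405). Psmg1, Psmg2, Psmg3 and Psmg4, which guide the alpha ring, had differences between -0.34 and 0.51. Of 11 ubiquitin receptors, deubiquitinases and other factors that act at the proteasome, 4 passed, against 25.6% of all genes tested: 3 were higher (Adrm1, a receptor in the cap, by 1.24, Ubqln1 by 1.07 and Rad23b by 0.80) and 1 was lower (Ubqln2, a difference of -0.77).

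The Nfe2l1 axis was split. Nfe2l1 read 3.66, 4.74 and 3.68 on KO M0, M1 and M2 and 3.27, 4.28 and 3.45 on WT M0, M1 and M2, and was higher in M1 than in M0 by 1.04 ± 0.16 (adjusted p = 0.023). Both M1 arrays were above the other 4. Ddi2, the protease that activates Nrf1, read 4.67, 3.24 and 4.35 in KO and 4.64, 3.11 and 4.32 in WT and was lower in M1, with a difference of -1.48 ± 0.15 (adjusted p = 0.0117). Nploc4, a cofactor of the segregase p97, was higher by 0.97. Vcp, the gene of p97, had a difference of 0.23 and Nfe2l2 (Nrf2) one of -0.67 (adjusted p = 0.057).

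**Figure D5:**
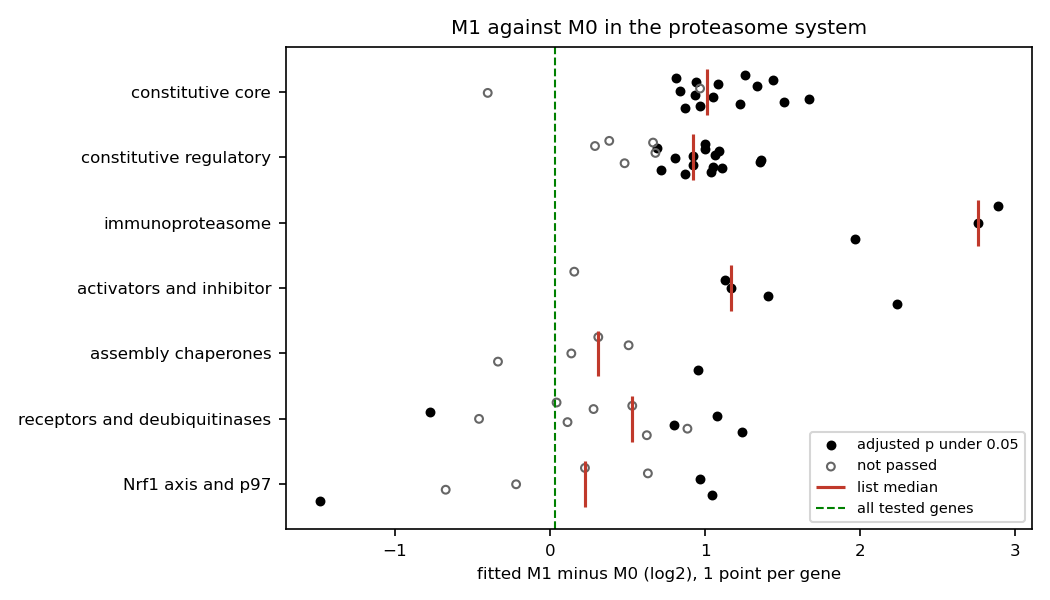
Fitted difference between M1 and M0 (log2, x axis) for the constitutive subunits and 5 lists of related genes; each point is 1 gene, filled where the adjusted p was under 0.05. Red bars are list medians, for example 1.01 for the constitutive core and 2.76 for the immunoproteasome, and the green line is the median of all genes tested (0.03).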

How the data were processed

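The 6 one-colour Agilent arrays (design 014868) came as scanner output, whose intensity values the authors made with Agilent's Feature Extraction software, version 10.7.3.1 as the deposited headers state, and as a table of log2 values deposited by the authors, whose centring is unknown here. The table was used as 1 of the alternatives; each column correlated with its own array with r of at least 0.998 across probes. Its direction and log2 scale were read from that match, and its column medians lay between 5.39 and 5.41. Flagged spots were left out and spots of a probe averaged. Processed signals were put on the log2 scale and the 75th percentile of each array was subtracted. A gene was its brightest probe, tested (19048 of 27361 names) where well above background on 2 or more arrays. Names are those of the files; all 36 members' symbols were current by accession.

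With limma 3.58.1 in R 4.3.3, state and genotype were fitted additively to the 6 arrays (prior df 1.88, residual df 2), with Benjamini-Hochberg adjustment over all genes tested. The residual holds array noise together with any genotype effect that varies by state, and p-values measure only that spread. The script was tested on simulated data. WT M0 and WT M1 shared slide 1, and the other 4 arrays slide 2. An "at least" fold sets the bright array against the higher of the dim array's own value and its lowest signal well above background. Alternatives were 4 scalings, 2 filters, the mean of probes, the slide as a block, an intensity trend and leaving out arrays; leaving out WT M0 and KO M1 together was chosen after seeing the data. The number of arrays limits the precision.

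The members, lists and naming rule (the catalytic genes, the 8 largest calls or the 4 highest and lowest members, and 3 each way within states) were chosen with earlier results of these data known. Paaf1 and Ly6g were not matched by name. Psmc4 and Psmd6 were given in full, and Psmg1 to Psmg4 and Vcp were named, beyond the rule. Some genes of the lists are not reported here.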

Additional observations from a re-analysis of the deposited data

Results flagged for a closer look

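Psmb11 had M1 above M2 in KO (levels -4.99 and -5.90) and M1 below M2 in WT (-6.95 and -5.83), so that its difference between M1 and M2 was at least 2.03 higher in KO than in WT. It stood out because the genotypes moved in opposite directions on its brightest probe. Each value is 1 array and the difference was not tested. WT M1 was not well above background and gives only a bound, by which WT M2 was at least 2.17-fold higher than WT M1. The signals were dim, at 18.3 and 10.5 units on KO M1 and M2 and 4.8 and 9.7 units on WT M1 and M2. The other probe of Psmb11 never stood clear of background. It had M1 above M2 in both genotypes (-8.21 and -8.44 in KO, -8.37 and -8.47 in WT). Being so dim, that probe cannot decide whether the opposite directions hold.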

How the results depend on the processing

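The direction of the median over the members was the same under every alternative for M1 against M0 and M1 against M2, and their counts of calls were not. For M1 against M0, 29 of 36 on the main scale, the counts were 10 (quantile), 6 (normexp) and 10 (authors' table), and without 1 array between 0 and 28. The core median of 1.01 was 0.62 (quantile), 1.24 (median centring), 1.21 (normexp) and 0.63 (authors' table), and the regulatory median of 0.92 was 0.53, 1.15, 1.05 and 0.54 in that order, 0.72 with the mean of probes, between 0.84 and 0.94 without 1 array and 0.84 without WT M0 and KO M1. The median of all genes shifted to 0.26 under median centring and to -0.35 under normexp. Of all genes tested in M1 against M0, 2038 (quantile), 673 (normexp) and 2041 (authors' table) passed as higher, against 2201 on the main scale. For M1 against M2 21 members passed on the main scale. The counts were 7 (quantile), 1 (normexp), 6 (authors' table), 12 (no filter) and 1 (slide as a block), and below 21 whenever 1 array was left out. Of all genes 2050, 741, 2052, 1662 and 1114 passed as higher in the same order, against 2205 on the main scale. The core median of 0.80 was 0.49 (quantile), 1.13 (median centring) and 0.51 (authors' table), and the regulatory median of 0.79 was 0.45, 1.12 and 0.45, 0.55 with the mean of probes, 0.69 to 0.85 without 1 array and 0.67 without WT M0 and KO M1. For M2 against M0 no alternative gave a call. The core median of 0.25 was 0.15 (median centring), 0.44 (normexp) and 0.19 to 0.36 without 1 array, and the regulatory median of 0.12 was 0.026 (quantile), 0.020 (median centring), 0.28 (normexp) and 0.039 (authors' table). For KO against WT no alternative gave a member call, although the intensity trend passed 32 of all genes. The core median of 0.11 was -0.0094 (normexp), and the regulatory median of 0.22 was 0.16 (quantile), 0.13 (median centring), 0.13 (normexp) and 0.16 (authors' table). The median of all genes was 0.17 under normexp, against 0.09 on the main scale. Within M0, KO minus WT was -0.27 (core) and -0.067 (regulatory) under normexp. Within M1 the core median was 0.076 (quantile), -0.079 (median centring) and 0.074 (authors' table), and the regulatory median 0.14, -0.056 and 0.13. Within M2 the regulatory median was 0.26 (median centring) and 0.092 (normexp). The cause of these shifts was not tested.

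Members that changed direction had small differences. For KO against WT, Psma4 was 0.00066 (mean of probes), 0.15 (slide) and -0.12 to 0.017 without 1 array; Psmb1 was -0.041 (quantile), -0.064 (median centring), -0.10 (normexp), -0.046 (authors' table) and -0.028 to 0.063 without 1 array. Psmb3 was -0.053, -0.046, -0.11 and -0.058 under the same 4 scalings, -0.14 (slide) and -0.024 to 0.13 without 1 array. Psmb5 was -0.00040 (normexp) and Psmb7 -0.14 (slide). For M2 against M0, Psmc1 was 0.12 (normexp) and -0.16 to 0.12 without 1 array; Psmd1 was -0.030 (quantile), -0.096 (median centring), -0.029 (authors' table), -0.029 (slide) and -0.034 to 0.040 without 1 array. Psmd10 was 0.070 (slide) and -0.25 to 0.070 without 1 array, and Psmd7 was 0.21 (normexp), 0.090 (slide) and -0.13 to 0.090 without 1 array. The state and genotype terms of the fit already compare states within a genotype and genotypes within a state, and the labels carry no replicate numbers for a further block.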
